A study of Mus musculus with 12 samples.

Results

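The 51 genes described here encode proteins that direct pre-mRNA splicing. They comprise 12 SR and SR-like proteins, 4 kinases of the Clk and Prp4 types, 12 other proteins with arginine- and serine-rich (RS) domains, 5 proteins of the 3' splice site or the DDX helicase family, 6 RNA-binding proteins of the RBM, cold-inducible and muscleblind groups, and 12 heterogeneous nuclear ribonucleoproteins (hnRNPs). They were chosen by protein family from the 55401 genes listed, with the measured values of these libraries already known, among them the low levels of Rsrp1 and Ddx17 in the IP libraries. Differences between IP and Input are therefore descriptions: a member is said to have passed or missed the threshold of the fit over all genes to sort the values, and neither that nor any count of members is a test of the families. Of the 51 genes, 49 were among the 6596 with enough reads to be tested. Srsf4, an SR protein gene with 22 reads over all libraries, and the kinase gene Clk2 were too low.

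Adult mouse hearts of 2 genotypes were compared: wild type (WT) and Rpl3l-/- (KO), which lacks Rpl3l, the striated-muscle paralog of the ribosomal protein gene Rpl3. Nano-TRAP pulls down ribosomes with an antibody against an HA tag and reads the attached mRNA on a nanopore device. For the IP libraries, hearts were placed in cycloheximide, which stalls elongating ribosomes, when they were excised, and RNA was taken on RNeasy columns from the anti-HA pull-down. For the Input libraries, total RNA was extracted from heart with TRIzol. Both kinds were selected with oligo(dT) and read as barcoded direct cDNA on a MinION. Pull-down, cycloheximide and RNA extraction therefore changed together between IP and Input, and their parts in a difference cannot be told apart. Each of the 4 groups (WT Input, WT IP, KO Input and KO IP) has 3 libraries, described as biological triplicates. The labels give no age beyond adult, and they do not say which cells carry the HA tag, how Rpl3l was deleted, or whether an IP and an Input library share a heart.

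SR proteins bind exonic enhancers through RNA-recognition motifs and recruit spliceosome components through their RS domains, whose phosphorylation by Clk and Srpk kinases sets where they reside and how active they are. hnRNPs coat nascent transcripts and often act against SR proteins at silencer elements. In heart muscle, Rbm20 controls the splicing of titin and of calcium-handling genes, and muscleblind proteins take part in the switch from fetal to adult isoforms. Many genes of these families produce alternative transcripts that carry a premature stop codon, and incompletely spliced Clk1 RNA is known to be held in the nucleus.

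Clk1 (chr1:58410189-58424066, minus strand, GRCm38) and Clk4 (chr11:51261730-51281766, plus strand) were among the 3 members with the lowest IP level relative to Input in both genotypes, and they are paralogs. Whether reads were confused between the 2 genes was not tested. Their longest coding sequences matched at 74.9% of 1433 aligned bases, with a longest identical run of 34 bases. The most alike stretch of 90 bases within 1 exon is printed here, 5' to 3' on the gene's strand, from the GENCODE M21 transcripts of GRCm38, and capitals mark the 6 bases at which the 2 genes differ.
Clk1, chr1:58420122-58420211, minus strand: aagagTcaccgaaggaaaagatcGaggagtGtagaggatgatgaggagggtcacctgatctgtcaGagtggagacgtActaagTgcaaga
Clk4, chr11:51273078-51273167, plus strand: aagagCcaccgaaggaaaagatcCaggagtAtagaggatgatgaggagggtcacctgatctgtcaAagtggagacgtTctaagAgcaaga
The stretch lies in a coding exon of 91 bases in both genes. Of the 7 annotated Clk1 transcripts that span it, 3 lack this exon, and 2 of those 3 are annotated as targets of nonsense-mediated decay (NMD), the pathway that destroys mRNA with a premature stop. For Clk4, 3 of the 6 transcripts that span it lack the exon, and 2 of those carry the NMD label. The counts sum all transcripts of a gene, so they do not tell these forms apart.

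The 250 bases before the RefSeq start of 4 members are printed to show the genes at both ends of the range. They are Rsrp1 and Ddx17, low in IP in both genotypes, and Hnrnpa2b1 and Hnrnpab, the only members past the threshold in the upward direction. For Ddx17 and for Hnrnpa2b1, 2 windows were listed and the first is shown. The Rsrp1 window runs past the GENCODE M21 gene start at chr4:134923592. The windows come from RefSeq (GRCm38.p6), run 5' to 3' on the gene's strand, and capitals mark matches on either strand to the TATA box (letters TATAAA), the CCAAT box (its name gives its letters), the GC box (letters GGGCGG), an ETS core (letters CCGGAAG) or the cAMP response element (letters TGACGTCA).
Rsrp1, chr4:134923375-134923624, plus strand: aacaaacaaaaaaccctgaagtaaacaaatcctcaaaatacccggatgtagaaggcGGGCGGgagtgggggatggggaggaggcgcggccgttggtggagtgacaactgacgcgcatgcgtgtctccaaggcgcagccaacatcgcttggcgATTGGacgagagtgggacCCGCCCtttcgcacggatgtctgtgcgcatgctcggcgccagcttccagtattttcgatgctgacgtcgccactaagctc
Ddx17, chr15:79546742-79546991, minus strand: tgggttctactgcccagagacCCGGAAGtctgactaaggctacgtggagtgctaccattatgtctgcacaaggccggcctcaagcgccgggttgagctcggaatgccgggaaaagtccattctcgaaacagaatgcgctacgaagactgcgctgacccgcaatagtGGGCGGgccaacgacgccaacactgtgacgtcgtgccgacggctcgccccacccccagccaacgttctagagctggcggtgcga
Hnrnpa2b1, chr6:51469895-51470144, minus strand: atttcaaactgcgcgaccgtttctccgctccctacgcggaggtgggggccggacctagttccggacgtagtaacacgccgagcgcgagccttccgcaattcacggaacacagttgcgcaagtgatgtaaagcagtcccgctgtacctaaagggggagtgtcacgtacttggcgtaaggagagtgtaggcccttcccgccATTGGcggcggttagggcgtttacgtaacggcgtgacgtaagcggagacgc
Hnrnpab, chr11:51606882-51607131, minus strand: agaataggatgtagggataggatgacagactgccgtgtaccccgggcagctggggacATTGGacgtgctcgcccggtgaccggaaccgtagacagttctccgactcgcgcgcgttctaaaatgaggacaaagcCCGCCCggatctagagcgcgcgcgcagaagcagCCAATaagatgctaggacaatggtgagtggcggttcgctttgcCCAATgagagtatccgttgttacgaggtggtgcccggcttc
A window was listed for 45 of the 51 members and for 27025 genes in all. The GC box was found in 66.7% of member windows and 32.9% of all windows, the CCAAT box in 55.6% and 34.5%, the ETS core in 20.0% and 7.05%, and the TATA box in 11.1% and 13.0%. The cAMP response element was found in 4.44% and 1.62%. The median GC content was 60.8% in member windows and 52.0% in all windows, so GC-rich motifs and base composition differed together. The libraries measure RNA, not promoter activity, and a match is only a match of letters.

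Total counts per library ran from 443525 to 710868 in IP, from 356705 to 443177 in WT Input and from 169359 to 291040 in KO Input, so KO Input values are the least precise. Levels are given as CPM, counts scaled to library size, with factors from trimmed means (TMM), and 3 reads correspond to 4.22 to 17.7 CPM before scaling. Rpl3l stood at 222 to 308 CPM in WT libraries of both kinds, at 27 to 68.5 CPM in KO Input and at 2.33 to 8.31 CPM in KO IP, in the order its labels give. Globin genes took 1.70% to 17.2% of counts, most in WT IP replicate 2 and WT Input replicate 3. The summed CPM of cardiomyocyte markers was 55170 to 65601 in the 12 libraries. Endothelial markers summed to 2409 to 3214 CPM in WT Input against 1771 to 2356 in WT IP, and to 2868 to 3620 against 1801 to 1935 CPM in KO. Adipocyte markers summed to 133 to 699 CPM in Input and 16.3 to 54.6 CPM in IP. The sums of these 2 marker lists thus moved with the fraction. Single endothelial markers differed: in each genotype 3 of 9 were above 0 on the log2 scale of IP over Input and 6 below. Of 7 adipocyte markers 2 had enough reads to be tested, and both were lower in IP in both genotypes. The part of these cell types in the members' differences was not tested. In whole-heart RNA, fewer cells of a type and less RNA per cell cannot be told apart.

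The 51 members took 0.581% to 0.789% of all counts in Input and 0.434% to 0.597% in IP. Relative to Input, the IP level was lower than 0 on the log2 scale for 41 of 49 members in WT and for 39 of 49 in KO. The median log2 ratio of IP over Input was -0.63 in WT, where the median over all 6596 genes was 0.02, and -0.46 in KO, against 0.01. In WT, 22 members passed an adjusted p of 0.05 (edgeR quasi-likelihood test, Benjamini-Hochberg over all genes), 21 lower in IP and 1 higher. Over all genes 14.0% passed in WT, 8.67% lower and 5.37% higher. In KO, 15 members passed, 14 lower and 1 higher, where 16.4% of all genes passed, 9.78% lower and 6.64% higher. With library totals in place of TMM, the KO calls were 4 higher and 11 lower among members and 599 higher and 448 lower over all genes, where TMM gave 438 and 645. Without both libraries of highest globin share 13 members were lower in WT, with all libraries thinned to the smallest 11 were, and without KO Input replicate 2 there were 9 lower in KO. Since the members were chosen with these ratios known, the shares are set side by side and nothing is read from them.

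The libraries were also compared without the fit. All 3 IP libraries lay below all 3 Input libraries for 29 of 49 members in WT and for 20 in KO, where 18.2% and 15.6% of all genes did. They lay above for 2 members in WT and for 6 in KO, where 16.4% and 15.2% of all genes did. Both genotypes passed the lower threshold for 10 members: Clk1, Clk4, Ddx17, Ddx5, Pnisr, Rbm3, Rbm39, Rsrp1, Srsf5 and Srsf6. Over all genes 5.46% did. A further 11 passed in WT and missed the threshold in KO, and 4 passed in KO and missed it in WT. Passing in 1 genotype is no difference between genotypes; the interaction term tests that difference. The log2 ratio was below 0 in both genotypes for 37 members, where 36.1% of all genes were, above 0 in both for 6 and of opposite sign for 6. Across the 49 members the 2 genotypes' ratios correlated at r = 0.87 (Spearman 0.76), across genes and as a description, with no library shared between the 2 ratios.

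**Figure D1:**
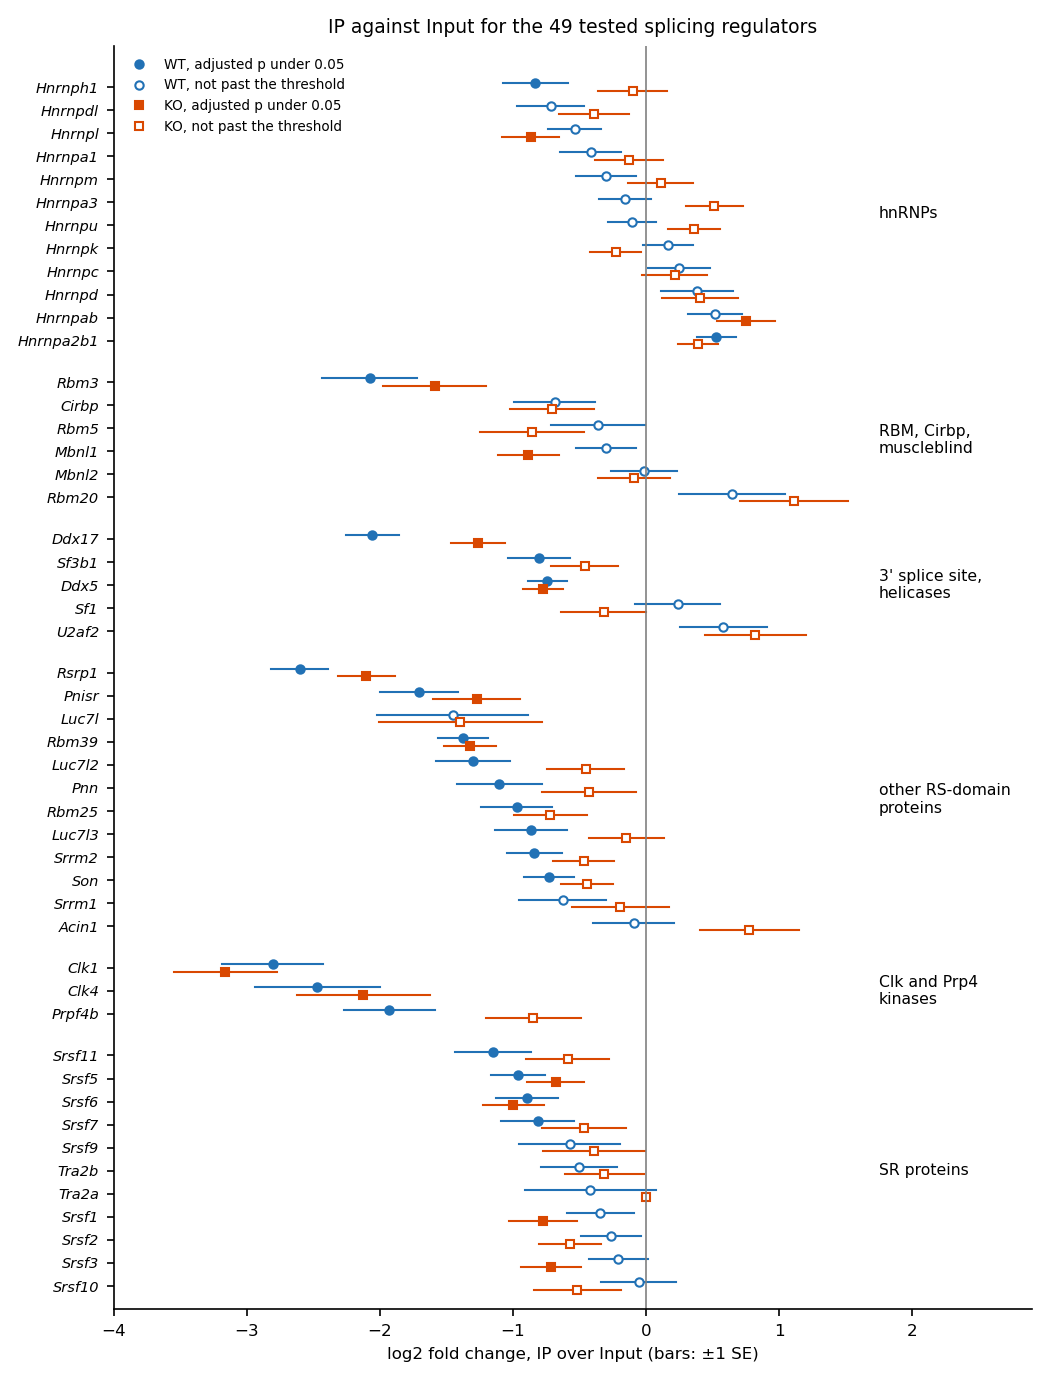
Log2 fold change of IP over Input (x axis) for each of the 49 members (y axis), grouped by role, with WT as blue circles, KO as orange squares and bars of 1 SE. Filled symbols passed an adjusted p of 0.05, and the points furthest to the left are Clk1, Rsrp1 and Clk4, while Hnrnpa2b1 and Hnrnpab are the filled points right of 0.

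The kinases had the lowest ratios of the 6 roles, with a median of -2.47 in WT and -2.12 in KO over the 3 tested. Clk1, a dual-specificity kinase that phosphorylates RS domains, stood at 74.8, 128 and 124 CPM in WT Input and at 16.3, 20.6 and 8.80 CPM in WT IP. In KO it stood at 110.4, 119 and 216 CPM in Input and 21, 7.85 and 21.6 CPM in IP. No IP library reached any Input library, and the log2 ratio was -2.80 ± 0.38 (SE) in WT and -3.16 ± 0.39 in KO, the lowest of any member in either genotype. The Clk1 values in IP rest on 5 to 13 reads per library. Clk4, its closest paralog among the members, stood at 49.9, 54.3 and 53.7 CPM in WT Input, 11.8, 5.14 and 10.6 in WT IP, 45.7, 27 and 79.6 in KO Input and 2.33, 13.1 and 15 CPM in KO IP. The groups did not overlap in either genotype, with log2 ratios of -2.47 ± 0.47 and -2.12 ± 0.50. Its IP values rest on 1 to 10 reads per library, so these ratios are imprecise. Prpf4b, the Prp4 kinase that acts on spliceosome assembly, stood at 64.8, 81.4 and 60.5 CPM in WT Input and 20.7, 15.4 and 17.6 CPM in WT IP, a log2 ratio of -1.93 ± 0.34 with no overlap. KO values were 30.5, 53.9 and 90.9 CPM in Input and 32.7, 28.8 and 31.6 CPM in IP, where the groups overlapped and the ratio of -0.85 ± 0.36 missed the threshold. Clk2, a further kinase of the family, had 0 to 8 reads per library and was not tested. It stood at 9.97, 12.3 and 10.1 CPM in WT Input, 8.88, 6.85 and 5.28 in WT IP, 30.5, 0 and 11.4 in KO Input and 11.7, 5.23 and 4.99 CPM in KO IP. KO Input replicate 2 had no Clk2 read, which allows up to 3 reads or 10.4 CPM of its unscaled total, by counting error only.

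Among the 12 other RS-domain genes, 9 were lower in IP in WT and 3 in KO, with medians of -1.04 and -0.46. Rsrp1, which encodes a small arginine- and serine-rich protein, stood at 459, 510.5 and 524 CPM in WT Input and 82.9, 59.96 and 102 CPM in WT IP, a log2 ratio of -2.60 ± 0.21 or a 6.08-fold lower level. In KO it stood at 510.3, 462 and 324 CPM in Input and 112, 116 and 76.5 CPM in IP, a log2 ratio of -2.10 ± 0.21 or 4.29-fold lower. The lowest Input library was above the highest IP library in both genotypes. Rbm39, a coactivator and splicing factor related to U2af2, stood at 244, 215 and 249 CPM in WT Input and 82.9, 90.8 and 98.6 in WT IP, and at 198, 285 and 267 CPM in KO Input and 105, 99.4 and 94.7 in KO IP. Its 6 IP libraries all lay between 82.9 and 105 CPM, below every Input library, and the log2 ratios of -1.37 ± 0.19 and -1.32 ± 0.19 differed by less than their errors. Pnisr, a nuclear speckle protein, stood at 77.3, 118 and 77.3 CPM in WT Input, 26.6, 32.6 and 24.7 in WT IP, 57.1, 84.7 and 56.8 in KO Input and 23.3, 31.4 and 26.6 CPM in KO IP. The groups did not overlap, with log2 ratios of -1.70 ± 0.29 and -1.27 ± 0.33, the latter short of the threshold without KO Input library 2 (-1.04). Here and elsewhere, the parentheses give the log2 ratio without that library.

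Luc7l2 and Luc7l3, homologs of a yeast protein that helps select the 5' splice site, passed in WT alone, at -1.30 ± 0.28 and -0.86 ± 0.27, against -0.45 ± 0.29 and -0.15 ± 0.28 in KO. Luc7l, the third homolog, had a log2 ratio of -1.45 ± 0.57 in WT and -1.40 ± 0.61 in KO on at most 14 reads per library and missed the threshold in both. Son and Srrm2, the large proteins around which nuclear speckles form, passed in WT at -0.73 ± 0.19 and -0.84 ± 0.21 and missed the threshold in KO at -0.44 ± 0.19 and -0.47 ± 0.23. Pnn, which joins the exon junction complex, and Rbm25, which is linked to 5' splice site choice, passed in WT at -1.10 ± 0.32 and -0.97 ± 0.27 and stood at -0.43 ± 0.35 and -0.72 ± 0.28 in KO. Srrm1, a splicing coactivator, stood at -0.63 ± 0.33 and -0.19 ± 0.36 and passed in neither. The calls made in WT alone were lost for Luc7l3 without WT IP library 1 (-0.92), WT IP library 2 (-0.86), WT IP library 3 (-0.79), WT Input library 2 (-0.66) or WT Input library 3 (-0.90), for Pnn without WT IP library 2 (-0.999), WT IP library 3 (-0.84), WT Input library 1 (-1.17), WT Input library 2 (-1.05) or WT Input library 3 (-1.09) and for Rbm25 without WT IP library 1 (-0.83), WT IP library 3 (-0.84) or WT Input library 2 (-0.90). They were lost for Son without WT IP library 2 (-0.67) and for Srrm2 without WT IP library 1 (-0.70). Acin1, a partner of the exon junction complex, was the exception in sign in KO, at -0.09 ± 0.31 in WT and 0.78 ± 0.37 in KO, past the threshold in neither.

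Of the 11 SR and SR-like genes tested, 4 were lower in IP in WT and 4 in KO, and none was higher. Srsf5, an SR protein gene regulated by growth signals, stood at 242, 247 and 202 CPM in WT Input and 139, 111 and 104 in WT IP, a log2 ratio of -0.96 ± 0.20. In KO its ratio was -0.68 ± 0.21, with 171, 239 and 261 CPM in Input and 166, 106 and 149.6 CPM in IP, and that call was lost without KO IP library 2 (-0.48), KO IP library 3 (-0.72), KO Input library 2 (-0.61) or KO Input library 3 (-0.56). Srsf6 stood at 162, 131 and 165 CPM in WT Input, 96.2, 72 and 75.7 in WT IP, 164, 293 and 176 in KO Input and 95.7, 94.2 and 129.6 CPM in KO IP. The groups did not overlap in either genotype and the ratios were -0.89 ± 0.23 and -0.996 ± 0.23. The Srsf6 ratio missed the threshold in WT without WT IP library 2 (-0.81) or WT Input library 1 (-0.85), and in KO without KO Input library 2 (-0.66), its highest library.

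Srsf11, a speckle protein, and Srsf7, which also links splicing to mRNA export, passed in WT only, at -1.15 ± 0.29 and -0.81 ± 0.27, against -0.59 ± 0.31 and -0.47 ± 0.31 in KO. Srsf1, the founding SR protein, and Srsf3, the smallest member of the family and a partner of the export receptor, passed in KO only, at -0.77 ± 0.26 and -0.72 ± 0.23, against -0.34 ± 0.25 and -0.21 ± 0.22 in WT. The calls of Srsf1 in KO and Srsf7 in WT were lost in 10 of 18 and 13 of 17 alternatives. Among single libraries, the threshold was missed by Srsf11 in WT without WT IP library 1 (-0.99), by Srsf7 in WT without WT IP library 1 (-0.88), WT IP library 2 (-0.79), WT IP library 3 (-0.75), WT Input library 1 (-0.67) or WT Input library 3 (-0.82), by Srsf1 in KO without KO IP library 2 (-0.76), KO IP library 3 (-0.61), KO Input library 1 (-0.72) or KO Input library 3 (-0.65) and by Srsf3 in KO without KO IP library 2 (-0.58), KO IP library 3 (-0.69), KO Input library 2 (-0.68) or KO Input library 3 (-0.61). Srsf2, Srsf9, Srsf10, Tra2a and Tra2b passed in neither genotype, with ratios from -0.57 to 0.00. Of these, Srsf10 is a splicing repressor when dephosphorylated, and Tra2a and Tra2b are mammalian counterparts of the fly sex-determination factor transformer-2.

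Among the 5 genes of the 3' splice site and helicase role, 3 were lower in IP in WT and 2 in KO. Ddx17, an RNA helicase that acts in splicing and in microRNA processing, stood at 227, 242 and 319 CPM in WT Input and 57.7, 66.8 and 63.4 CPM in WT IP, a log2 ratio of -2.06 ± 0.20 or 4.16-fold lower. In KO it stood at 187, 223 and 250.03 CPM in Input and 91, 81.1 and 101 CPM in IP, a log2 ratio of -1.26 ± 0.20 or 2.40-fold lower. IP and Input libraries did not overlap in either genotype, and every KO IP library was above every WT IP library. Ddx5, its paralog, stood at 513, 540.1 and 497 CPM in WT Input and 287, 343 and 299 in WT IP, and at 564, 570.1 and 642 CPM in KO Input and 350.03, 339 and 346 in KO IP. Its ratios were smaller in size and alike in the 2 genotypes, at -0.74 ± 0.15 and -0.78 ± 0.15, with no overlap. Sf3b1, the large branch-site subunit, passed in WT at -0.81 ± 0.23 and not in KO at -0.46 ± 0.25, and the WT call was lost without WT IP library 2 (-0.76), WT IP library 3 (-0.68), WT Input library 1 (-0.80) or WT Input library 2 (-0.71). Sf1, which first binds the branch site, had ratios of 0.24 ± 0.32 and -0.32 ± 0.32, and U2af2, which binds the polypyrimidine tract, of 0.58 ± 0.33 and 0.82 ± 0.38. U2af2 missed the threshold in both genotypes, although all IP libraries lay above all Input libraries in both.

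The RBM, cold-inducible and muscleblind genes differed among themselves. Rbm3, a cold-inducible RNA-binding protein, stood at 119.6, 133 and 87.3 CPM in WT Input and 23.7, 13.7 and 44 in WT IP, and at 72.4, 123 and 68.2 CPM in KO Input and 14, 31.4 and 39.9 in KO IP. The groups did not overlap, and the log2 ratios were -2.08 ± 0.36 and -1.59 ± 0.38, the latter short of the threshold without KO Input library 2 (-1.25). Cirbp, the other cold-inducible gene, stood at 92.2, 104 and 67.2 CPM in WT Input, 44.4, 70.2 and 51.1 in WT IP, 83.8, 139 and 102 in KO Input and 70.01, 37.9 and 94.7 CPM in KO IP. Its groups overlapped in both genotypes and its ratios of -0.69 ± 0.31 and -0.71 ± 0.31 missed the threshold. Rbm20, the cardiac regulator of titin splicing, stood at 34.9, 104 and 90.7 CPM in WT Input and 74, 106 and 178 in WT IP, and at 68.5, 169 and 11.4 CPM in KO Input and 191, 184 and 204 in KO IP. The 3 KO IP libraries lay close together above every other library, while KO Input ran from 2 to 44 reads, and the ratios of 0.64 ± 0.40 and 1.11 ± 0.40 missed the threshold. Mbnl1 stood at 217, 209.6 and 279 CPM in WT Input, 195, 194 and 179.6 in WT IP, 293, 273 and 403 in KO Input and 93.3, 213 and 201 CPM in KO IP. It was lower in IP in KO, at -0.88 ± 0.23, and at -0.30 ± 0.23 in WT, and the KO call was lost without KO Input library 3 (-0.71). Mbnl2, its paralog, stood at 197, 199.7 and 175 CPM in WT Input, 204, 158 and 204 in WT IP, 171, 150.2 and 170.5 in KO Input and 74.7, 232 and 139.6 CPM in KO IP. Its groups overlapped, with ratios of -0.02 ± 0.25 and -0.09 ± 0.27. Rbm5, a regulator of apoptosis-gene splicing, stood at -0.36 ± 0.35 and -0.86 ± 0.39 and passed in neither genotype.

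The hnRNP genes lay closest to 0, with a median log2 ratio of -0.13 in WT and 0.16 in KO over all 12. Hnrnpa2b1, which binds and sorts mRNA and is the member with the highest CPM, was higher in IP in WT. It stood at 518, 513 and 490.4 CPM in WT Input and 715, 824 and 659 CPM in WT IP, a log2 ratio of 0.53 ± 0.15 or 1.44-fold. In KO it stood at 552, 624 and 636 CPM in Input and 838, 710.3 and 824 in IP, a ratio of 0.39 ± 0.15 that missed the threshold. The IP libraries were above the Input libraries in both genotypes, but the WT call was lost without WT IP library 2 (0.44), WT Input library 1 (0.54), WT Input library 2 (0.53) or WT Input library 3 (0.50). Hnrnpab, a close relative of Hnrnpd, passed in KO, where it stood at 164, 127 and 176 CPM in Input and 296, 221 and 268 in IP, a ratio of 0.75 ± 0.22 or 1.68-fold. In WT it stood at 159.5, 136 and 238 CPM in Input and 278, 242 and 232 in IP, with overlap through WT Input replicate 3 and a ratio of 0.52 ± 0.20. The KO call was lost without KO IP library 1 (0.67) or KO Input library 2 (0.62). Hnrnpl, which binds CA repeats, was lower in IP in KO at -0.87 ± 0.21 and stood at -0.54 ± 0.20 in WT, and Hnrnph1, which binds runs of G, was lower in WT at -0.83 ± 0.25 and stood at -0.10 ± 0.26 in KO. The Hnrnph1 call was lost without WT IP library 1 (-0.76), WT IP library 2 (-0.74) or WT Input library 2 (-0.55). The other 8 (Hnrnpa1, Hnrnpa3, Hnrnpc, Hnrnpd, Hnrnpdl, Hnrnpk, Hnrnpm and Hnrnpu) passed in neither genotype, with ratios from -0.71 for Hnrnpdl in WT to 0.51 for Hnrnpa3 in KO.

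**Figure D2:**
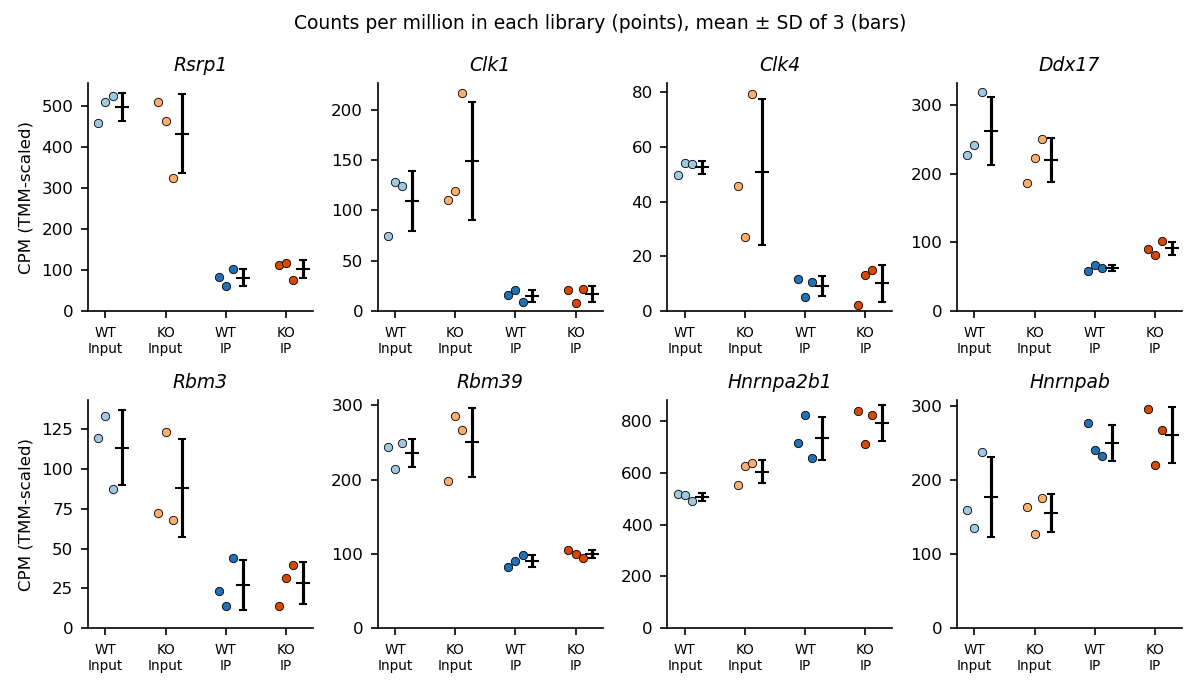
TMM-scaled CPM of 8 members in each library (points) with the mean and SD of each group of 3, one panel per gene. IP points of Rsrp1, Clk1, Clk4, Ddx17, Rbm3 and Rbm39 sit below all Input points of the same genotype, and those of Hnrnpa2b1 sit above.

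Summed over all 51 members, the level was 6745, 7233 and 6963 CPM in the 3 WT Input libraries, 6512, 7469 and 7597 in KO Input, 4769, 5097 and 4784 in WT IP and 5311, 5424 and 5651 CPM in KO IP. Every IP library lay below every Input library, and every KO IP library lay above every WT IP library. The sum rests partly on Hnrnpa2b1, which moved the other way: without it the sums were 4054, 4273 and 4125 CPM in WT IP and 4473, 4713 and 4827 in KO IP. The other RS-domain genes summed to 1829.6, 1985 and 1847 CPM in WT Input, 1596, 1853 and 1671 in KO Input, 764, 807 and 801 in WT IP and 989, 1019 and 879 CPM in KO IP. The hnRNPs summed to 2039, 2086 and 2042 CPM in WT Input, 2003, 2134 and 2250.2 in KO Input, 2136, 2342 and 2049.5 in WT IP and 2336, 2255 and 2543 CPM in KO IP, and here IP and Input overlapped in WT and did not in KO, although the lowest KO IP sum was only just above the highest KO Input sum. These sums describe the libraries and carry no test, since the members were chosen with the values of these libraries known.

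**Figure D3:**
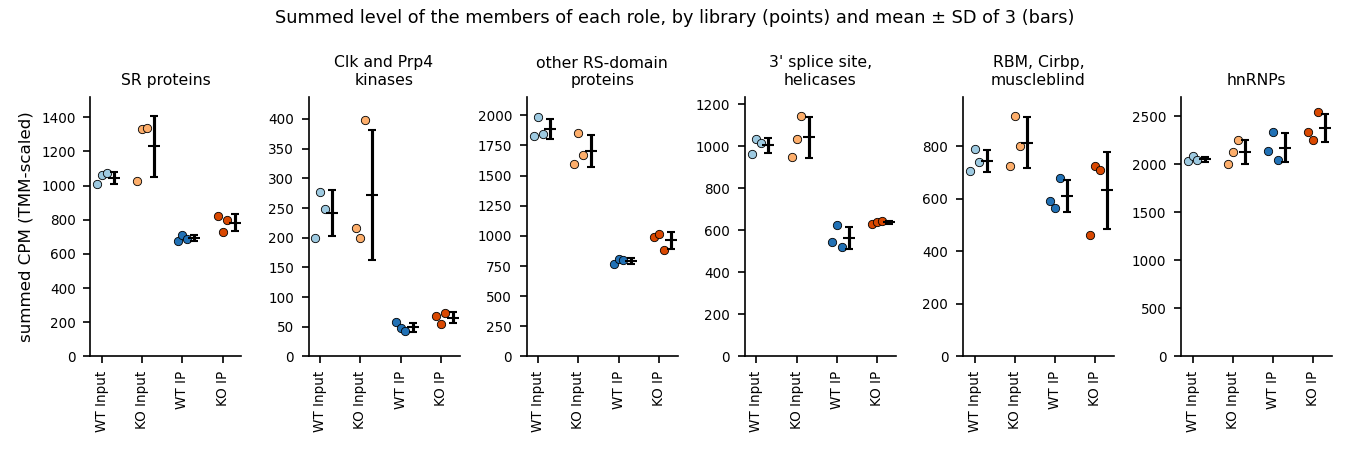
Summed TMM-scaled CPM of the members of each role in each of the 12 libraries (points), one panel per role, with the mean and SD of each group. The kinase, other RS-domain, SR and helicase sums are lower in IP than in Input libraries, and the hnRNP sums of IP and Input lie close together.

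Whether the IP to Input ratio differed between genotypes was tested as the interaction term. No member passed (edgeR, Benjamini-Hochberg), where 0.0910% of all genes did, and none passed with DESeq2 or limma-voom. At an unadjusted p under 0.05, 4 of 49 members stood out, against 7.02% of all genes, and DESeq2 gave 1 and limma-voom 5. The smallest p belonged to Ddx17, whose KO ratio was higher by 0.79 ± 0.29 log2 units (95% interval 0.21 to 1.38, adjusted p = 0.561). The other 3 were Hnrnpa3 at 0.67 ± 0.29, Prpf4b at 1.08 ± 0.49 and Luc7l2 at 0.85 ± 0.40. The difference was above 0 for 33 of 49 members, against 50.6% of all genes, with a median of 0.28 against 0.01. For the other RS-domain genes it was above 0 in 12 of 12, with a median of 0.43, for hnRNPs in 8 of 12, for SR genes in 6 of 11, for 3' splice site and helicase genes in 3 of 5, for kinases in 2 of 3, and for RBM, cold-inducible and muscleblind genes in 2 of 6, with a median of -0.05. Genes of a role share the same 12 libraries and do not count as separate observations. The IP to Input ratios were known when the members were chosen. These differences, p-values included, are therefore descriptions and no test of the families. For 15 of 49 members the 95% interval of the difference stayed within 2-fold either way, and for the others it reached beyond 2-fold in at least 1 direction.

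The genotype comparison within IP called no member (edgeR, Benjamini-Hochberg, lowest adjusted p = 0.889), where 0.0910% of all genes passed, and DESeq2 and limma-voom called none. At an unadjusted p under 0.05 there were 8 members, against 5.20% of all genes (4 with DESeq2, 8 with limma-voom). These were Luc7l3 at 0.69 ± 0.26, Hnrnph1 at 0.62 ± 0.24, Ddx17 at 0.54 ± 0.21, Luc7l2 at 0.71 ± 0.28, Prpf4b at 0.76 ± 0.36, Rbm20 at 0.71 ± 0.34 and Tra2a at 0.89 ± 0.43, all higher in KO, and Srsf10 at -0.62 ± 0.28, lower in KO. Luc7l2 stood at 57.7, 78.8 and 68.7 CPM in WT IP and 86.3, 109 and 136 in KO IP, Luc7l3 at 63.7, 58.2 and 52.8 CPM against 138, 87.6 and 64.8, and Hnrnph1 at 59.2, 54.8 and 77.5 CPM against 95.7, 114 and 83.1. None of these 3 overlapped between genotypes. Tra2a overlapped, at 31.1, 18.8 and 15.8 CPM in WT IP and 25.7, 65.4 and 28.3 in KO IP, and Srsf10 did not, at 48.8, 59.96 and 49.3 CPM and 30.3, 30.1 and 41.6.

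As a group, 41 of 49 members had a KO over WT log2 ratio above 0 in IP, against 50.0% of all genes, with a median of 0.15 against 0.00. KO IP libraries lay wholly above WT IP libraries for 9 members and wholly below for 1, against 5.40% and 5.44% of all genes. The count above 0 was 11 of 12 for other RS-domain genes, 11 of 12 for hnRNPs and 9 of 11 for SR genes, with role medians of 0.19, 0.15 and 0.22. The RBM, cold-inducible and muscleblind genes stood at 3 of 6 above 0, with a median of -0.00085. The 3' splice site and helicase genes stood at 4 of 5 and the kinases at 3 of 3. Members share the same IP libraries and do not count as separate observations, and their values were known when they were chosen. These counts are therefore descriptions. The count over all members was 28 of 42 with libraries thinned to equal depth and 35 of 38 with a stricter count filter. With library totals in place of TMM it was 44 of 49, but there the median of all genes also rose, to 0.12. Without single IP libraries the count fell to between 34 and 38 of 49, lowest without WT IP library 3. It was 37 of 49 with limma-voom and 39 of 49 with a replicate block. Of the 46 members with an interval, 34 had a 95% interval within 2-fold either way. Acin1, Hnrnpa1 and Hnrnpk had none, because their differences of 0.003, 0.007 and 0.006 lay too near 0 for an SE. Most members thus had an interval that leaves out a doubling, and none had a difference past the threshold.

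The genotype comparison in Input called no member either (edgeR, Benjamini-Hochberg, lowest adjusted p = 0.580), where 0.182% of all genes passed, and DESeq2 and limma-voom called none. At an unadjusted p under 0.05 there were 3 members against 7.11% of all genes, and 2 with each of the other tools. Srsf3 was higher in KO Input at 0.59 ± 0.23, with 122, 133 and 111 CPM in WT and 152, 193 and 216 in KO, and Srsf6 at 0.49 ± 0.23 overlapped between genotypes. Acin1 was lower at -0.87 ± 0.38, with 72.3, 78.9 and 67.2 CPM in WT and 19, 65.5 and 34.1 in KO. Above 0 stood 23 of 49 members against 49.4% of all genes, with a median of -0.04. KO Input libraries lay above WT Input for 5 members and below for 3, where 6.17% and 6.20% of all genes did. The 95% interval stayed within 2-fold for 32 of 49. Immediate early genes, which respond rapidly to stimuli, summed to 491 to 662 CPM in WT Input, 1009 to 2347 CPM in KO Input and 376 to 510 CPM in IP. KO Input libraries thus stood apart in these genes and in their lower depth, and the part of either in the ratios to Input was not tested.

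**Figure D4:**
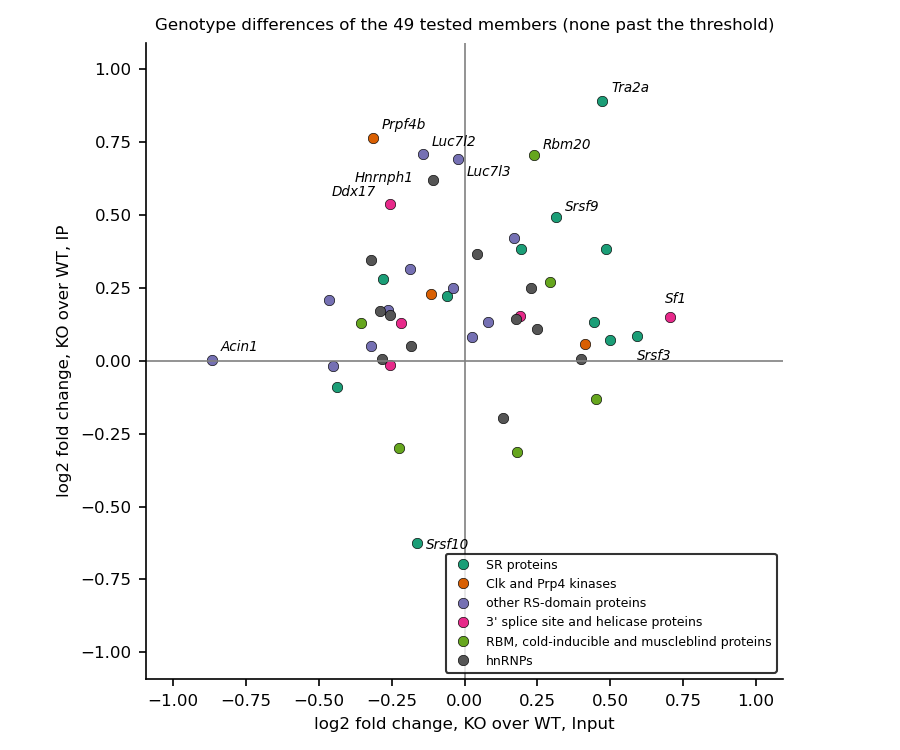
Log2 fold change of KO over WT in Input (x axis) and in IP (y axis) for the 49 members, coloured by role, with lines at 0. Most points lie above the horizontal line and they spread to both sides of the vertical one, and no point passed an adjusted p of 0.05 in either comparison.

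Other splicing genes, 122 in 4 lists drawn up by function and, like the members, with earlier results known, are set beside these values. Of the 99 tested, 8 were lower and 2 higher in IP in WT, or 10.1% against 14.0% of all genes, with a median log2 ratio of -0.08. In KO 10 were lower and 4 higher, or 14.1% against 16.4% of all genes, with a median of -0.04. These shares lay below those of all genes. Among Sm and U snRNP proteins, the core of the spliceosome, 4 of 19 were lower in WT and 3 in KO, with medians of -0.42 and -0.36. Those counts are 21.1% and 15.8%, against 8.67% and 9.78% of all genes. Snrnp70, a protein of the U snRNP machinery, stood at -1.25 ± 0.32 in WT, and Snrpg, a ring subunit, at -1.12 ± 0.30 in WT and -1.02 ± 0.32 in KO. Among other spliceosome factors, 27 tested genes had medians of -0.02 and 0.14. In WT 1 of them was higher in IP, and in KO 2 were higher and 1 lower. Together these were 3.70% and 11.1%, against 14.0% and 16.4% of all genes. Sart1, a tri-snRNP protein, was higher in IP at 1.20 ± 0.39 and 2.11 ± 0.47. In KO, Sf3b2 was higher at 1.08 ± 0.24 and Eftud2 lower at -1.43 ± 0.44. Among other alternative splicing regulators, Pcbp2, which binds C-rich RNA, was lower at -1.06 ± 0.17 and -0.93 ± 0.17, and Tia1, which binds U-rich introns, was lower in WT at -2.29 ± 0.53. In that list 4 were lower and 1 higher of 40 tested in WT, and 6 lower and 2 higher in KO. Together these were 12.5% and 20%, against 14.0% and 16.4% of all genes. Exon junction and NMD factors held no called gene of 13 tested, with 1 in WT and 2 in KO at an unadjusted p under 0.05 (edgeR). These were 7.69% and 15.4%, below the 27.8% and 29.4% of all genes. The smallest p in KO was that of Magoh, an exon junction core protein, at -1.03 ± 0.39. Between genotypes no gene of the 4 lists passed in Input or IP (edgeR), with 8 and 4 at an unadjusted p under 0.05, or 8.08% and 4.04% against 7.11% and 5.20% of all genes.

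Genes whose transcripts are known cardiac targets of Rbm20, such as Ttn and Camk2d, showed no genotype call among 11 tested. In WT and in KO, 1 was higher and 1 lower in IP, or 18.2% against 14.0% and 16.4% of all genes. Gene-level counts do not show which exons were used, so they bear on the amounts of these genes and not on their splicing. All 10 noncoding RNA genes listed as retained in nuclei, Malat1 and Neat1 among them, stood at 0 in all 12 libraries, so these counts give no gauge of nuclear RNA in either fraction.

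The members share annotation features that the choice of genes did not use. Of the 49 tested, 83.7% have a transcript annotated as intron-retaining and 77.6% one annotated as an NMD target, against 62.5% and 29.1% of all protein-coding genes tested. The median number of annotated transcripts was 10 against 5. The 38 members with an NMD transcript had a median IP over Input log2 ratio of -0.72 in WT and -0.47 in KO, and the 11 without one of -0.16 and -0.09. Over all protein-coding genes these medians were -0.05 and -0.04 with an NMD transcript and 0.03 and 0.03 without. The 11 members without one included Rsrp1 at -2.60 and Ddx17 at -2.06 in WT. The others were Srsf10, Acin1, Mbnl1, Mbnl2 and the hnRNPs Hnrnpa3, Hnrnpab, Hnrnpc, Hnrnph1 and Hnrnpm. Annotation and role thus differed together. The 41 members with an intron-retaining transcript had medians of -0.69 and -0.47, and the 8 without one of -0.49 and -0.26. Over the 49 genes, Pearson's r with the ratio was -0.04 in WT and -0.17 in KO for the number of intron-retaining transcripts, and 0.09 and 0.20 for transcript length. These are descriptions across genes, and the counts do not show which transcripts were read.

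Near-identical and overlapping genes limit single members. A match of at least 90% identity over 300 bases in another gene was found for 19 members, and for 6 of these the matching genes held reads. Both counts include Hnrnpm, whose only match was March2, a gene that shares its exons and is no separate copy. The copies of Hnrnpa3, 37 genes, held 68 reads against 789 for the gene itself. Hnrnpm shares exons on its own strand with March2, which held 561 reads against 598. On the opposite strand, Elob held 1757 reads against 654 for Srrm2, Cox20 810 against 1031 for Hnrnpu, and Mettl23 344 against 632 for Srsf2. The counting rule and its use of strand are not given in the sources used here, so reads of these pairs could be assigned to either gene. For Ddx17 the overlapping Kdelr3 held 68 reads against 711, and for Hnrnpab the overlapping Phykpl held 71 against 1215.

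Levels of different genes were compared per kilobase of the longest coding transcript (CPM per kb, mean ± SD, n = 3). In WT Input, Clk1 stood at 60.7 ± 16.6 and Clk4 at 27 ± 1.23 CPM per kb, a ratio of 2.23 ± 0.526, and in KO Input the ratio was 3.46 ± 1.18. Ddx5 stood at 145 ± 6.09 and Ddx17 at 55.5 ± 10.5 CPM per kb in WT Input. The ratio of Ddx5 to Ddx17 was 2.68 ± 0.531 in WT Input, 3.61 ± 0.354 in KO Input, 6.57 ± 0.273 in WT IP and 5.07 ± 0.512 in KO IP, so the 2 helicases lay further apart in IP. The ratio of Luc7l2 to Luc7l in WT Input was 6.51 ± 1.92 and that of Luc7l3 to Luc7l 3.41 ± 1.10. Mbnl1 and Mbnl2 were at like levels per kb in WT Input, with a ratio of 1.01 ± 0.243, against 1.58 ± 0.283 in KO Input. The ratio of Cirbp to Rbm3 was 1.63 ± 0.00960 in WT Input and 5.75 ± 4.47 in WT IP, the latter on 8 to 25 Rbm3 reads. These ratios depend on which transcript sets the length, while comparisons of 1 pair between groups do not. Coding sequences of 10 such pairs matched at 71.0% to 77.7% of aligned bases, with identical runs of at most 34 bases.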

How the data were processed

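Gene counts came from nanopore direct cDNA libraries of WT and Rpl3l-/- mouse hearts, 3 Input and 3 IP libraries per genotype. The values the authors deposited are whole-number counts per gene ID, 1 table per library. The submitters' processing notes name minimap2 2.14, DESeq2 1.34.0 and GRCm38, and the counting rule and its use of strand are not given in the sources used here. Of 55401 gene IDs, 55141 matched GENCODE M21 without their version, which gave the symbols. Total counts were 169359 to 710868 per library. The 95% intervals of fold changes come from the fit and include the spread between libraries, while the limit given for a count of 0 covers counting error only.

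The members and lists were chosen with earlier results of these data known. Genes passing edgeR's filterByExpr (minimum count 10, minimum total 15) were fitted by quasi-likelihood (edgeR 4.0.16, R 4.3.3) with TMM factors, all 12 libraries and 1 mean per group. The 5 contrasts were IP against Input in each genotype, KO against WT in each fraction, and the interaction. Benjamini-Hochberg adjustment ran over all 6596 genes within a contrast at 0.05, and the biological coefficient of variation was 18.2%. SE is the size of the log2 fold change divided by the root of F, and none is given for a change very near 0. Alternatives were DESeq2 1.42.0 (test and size factors), limma-voom (limma 3.58.1), library totals, other count filters, only the libraries compared, a replicate block, thinning, removal of globin genes or of a length trend, and leaving out each library. Leaving out both libraries of highest globin share was added after seeing the data. The fit was tested on simulated data.

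Library values are printed for members past the threshold (up to 8 per direction and contrast, smallest p first), for Rbm20, Mbnl1, Mbnl2, Clk1, Clk2, Clk4, Rbm3 and Cirbp, and for the 3 of highest mean CPM. Library values of other members, and the 4 promoters, were chosen after their values were seen. From each of the other lists, up to 3 called genes per contrast were eligible for naming. Near copies were found by aligning transcripts. Promoter windows came from a RefSeq table, and 6 members had none listed there.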

Additional observations from a re-analysis of the deposited data

How the results depend on the processing

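In WT, 1 member was higher and 21 were lower in IP. With only the libraries compared in the fit 2 were higher. Thinning all libraries to the smallest gave 11 lower, and leaving out both libraries of highest globin share gave 13. Leaving out single WT libraries gave 0 to 1 higher and 15 to 19 lower. In KO, 1 member was higher and 14 were lower. Library totals gave 4 higher, and no count filter, limma-voom, only the libraries compared, thinning and removal of a length trend each gave 2. Leaving out single KO libraries gave 0 to 2 higher and 9 to 15 lower, with 9 without KO Input replicate 2. The cause of these changes was not tested, other than that thinned and left-out libraries hold fewer reads or samples. No result changed sign among those called. In every alternative that tested the gene, 10 of the 22 WT calls and 6 of the 15 KO calls were kept. Most of these calls were tested in 18 alternatives. Clk4 was tested in 16 in WT and 15 in KO, and Pnisr and Prpf4b in 17 in WT. The counts of members called between genotypes and in the interaction were 0 in every alternative run. Over all genes, thinning gave 138 higher and 299 lower in WT, and leaving out both globin-rich libraries 122 and 302. With library totals the median of all genes for IP over Input was 0.10 in WT (0.02 with TMM) and 0.15 in KO (0.01).

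Replicate numbers are shared by the 4 groups, but same-numbered libraries did not deviate together: correlations of their deviations ran from -0.12 to 0.04, and 0 of 18 cases correlated best with its own number. With the replicate number as a block, WT gave 1 higher and 20 lower, KO 2 higher and 13 lower, and the genotype and interaction counts stayed at 0. With the median coding length in place of the longest, the WT Input ratios per kb became 9.50 for Ddx5 to Ddx17 (2.68 before), 2.77 for Luc7l2 to Luc7l (6.51), 1.55 for Luc7l3 to Luc7l (3.41), 1.60 for Mbnl1 to Mbnl2 (1.01) and 1.07 for Cirbp to Rbm3 (1.63), because the length itself sets the ratio. KO Input libraries hold the fewest reads, and they limit every KO comparison with Input.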
